A study of Mus musculus with 4 samples.

Results

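The genes described here are 40 genes of cell proliferation, named in a list drawn from the 27998 genes in the count tables. They comprise 25 genes of mitosis and the spindle, 13 genes of DNA replication, and 2 chromatin genes, Hmgb2 and H2afz, that dividing cells use heavily. All 40 were present in the tables. They were followed through single-cell libraries of mouse bone marrow mesenchymal stromal cells, the supporting cells of the marrow, and through the blood cells that remained in those libraries after sorting.

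The study holds 4 single-cell RNA libraries of C57BL/6 mice, 1 for each group. WT_A1 (genotype WT) is paired with NHD13Tg, which carries the Nup98-HoxD13 fusion transgene and models myelodysplastic syndrome (MDS), a failure of blood cell maturation in the marrow. Control (genotype WT) is paired with Abcg2-MDS/AML, a second model that the labels name by the transporter gene Abcg2 and by MDS and acute myeloid leukemia (AML). In all 4 libraries, crushed and collagenase-digested femora and tibiae were sorted for CD45- TER119- CD31- CD140a+ CD51+ cells, which sets out to remove leukocytes, red cells and endothelium. The promoter of the transgene, how the Abcg2 model was made, and the age and number of the animals are not stated in the labels used here. With 1 library in each group no difference between groups could be tested. Every interval below is a 95% interval that covers counting error only.

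In a dividing cell, the replication genes are switched on first, as E2F factors are released from the retinoblastoma proteins at the entry to S phase. The mitotic genes follow in G2, through the CHR element (cell cycle genes homology region) of their promoters. In resting cells the DREAM complex keeps genes of both kinds silent. Erythroid precursors are among the fastest dividing cells of the marrow, whereas adult marrow stroma divides rarely. In the growth plate, columns of chondrocytes divide before they enlarge.

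The promoters of these genes are shown first. The replication and the mitotic members differ in the motifs near their start sites. Whether these motifs bear on the levels described below was not tested. Of the 40 members, 34 had an entry in the RefSeq promoter table (build GRCm38.p6), with 37 promoters in all. Each window of 300 bases was searched on both strands. The CHR core TTTGAA occurred in 77.3% of the 22 mitotic promoters and in 7.69% of the 13 replication promoters (Mcm2 only), against 17.9% of all 32851 promoters in the table. The E2F cores TTTGGCGC, TTTCCCGC, TTTGCCGC and TTTCGCGC occurred in 38.5% of the replication promoters, in 4.55% of the mitotic promoters (Cdk1 only) and in 2.26% of all promoters. The CCAAT box was common to both kinds of member, at 90.9% of mitotic and 84.6% of replication promoters, and occurred in 37.4% of all promoters. Each of the 17 mitotic promoters with a CHR core also held a CCAAT box. These matches describe letters within a window. They do not show binding, and a promoter without a match may still hold a site outside the window or with other letters.

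**Figure D1:**
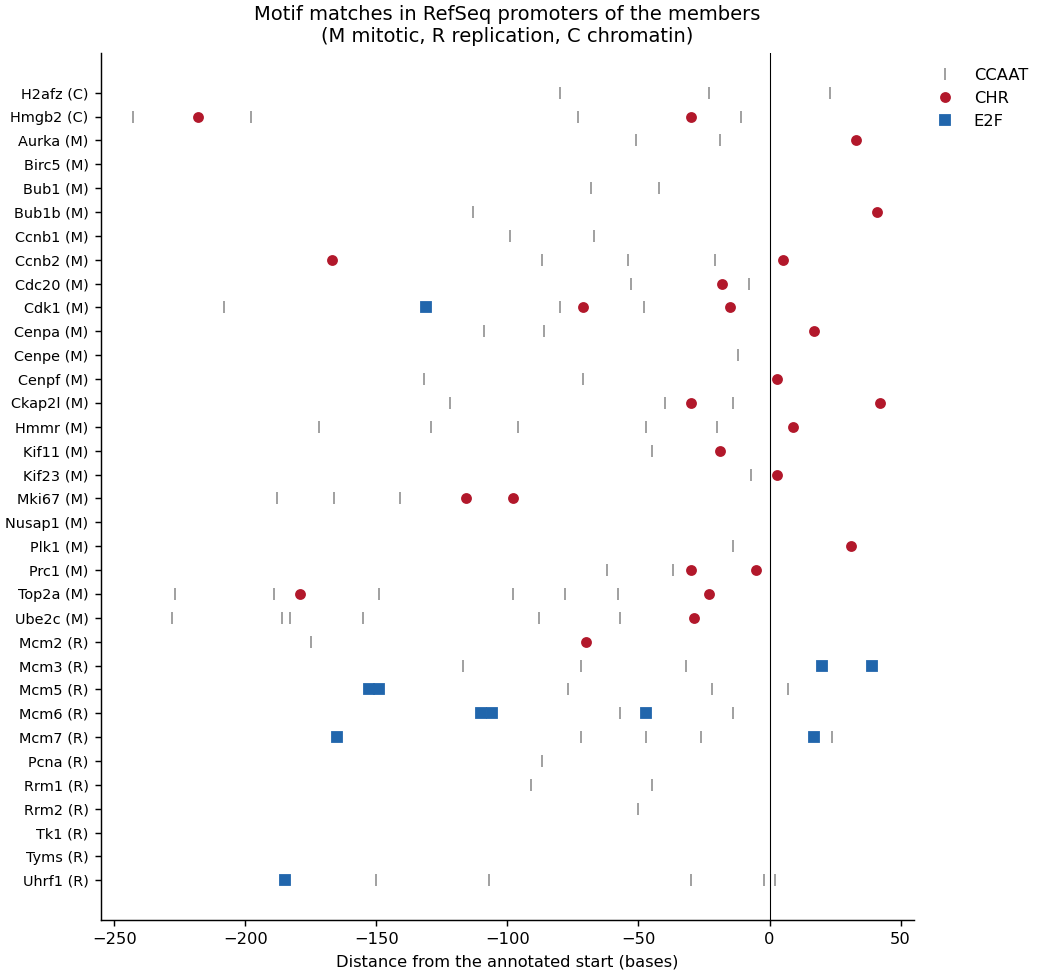
Positions of CHR, CCAAT and E2F matches relative to the annotated start, in bases, with 1 row per member gene and its role in brackets. Where a gene has more than 1 promoter, the matches of each share its row. CHR matches lie mostly in mitotic rows and close to the start, whereas E2F matches lie in replication rows and in the row of Cdk1.

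Below are 180 bases of 6 member promoters, from 150 before to 30 after the annotated start, read 5′ to 3′ on the strand of the gene. Capitals mark the CHR core, the CCAAT box and the E2F cores, in either orientation. The first 4 are mitotic members. Top2a encodes the topoisomerase that untangles sister chromosomes (chr11:99024160-99024339, minus strand). Cdk1 encodes the kinase that drives entry into mitosis (chr10:69352883-69353062, minus strand). Ccnb2 encodes a cyclin partner of that kinase (chr9:70421525-70421704, minus strand). Cenpa encodes the histone variant that marks the centromere (chr5:30666736-30666915, plus strand). Mcm3 (chr1:20820283-20820462, minus strand) and Mcm6 (chr1:128359676-128359855, minus strand) encode subunits of the replicative helicase.
Top2a: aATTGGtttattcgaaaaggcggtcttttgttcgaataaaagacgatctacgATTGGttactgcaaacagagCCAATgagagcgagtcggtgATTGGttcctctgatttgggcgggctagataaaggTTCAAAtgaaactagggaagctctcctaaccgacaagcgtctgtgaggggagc
Cdk1: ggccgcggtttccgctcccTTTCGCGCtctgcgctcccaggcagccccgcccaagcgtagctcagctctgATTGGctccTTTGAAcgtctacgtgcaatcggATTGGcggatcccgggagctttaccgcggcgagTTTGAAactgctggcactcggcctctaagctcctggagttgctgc
Ccnb2: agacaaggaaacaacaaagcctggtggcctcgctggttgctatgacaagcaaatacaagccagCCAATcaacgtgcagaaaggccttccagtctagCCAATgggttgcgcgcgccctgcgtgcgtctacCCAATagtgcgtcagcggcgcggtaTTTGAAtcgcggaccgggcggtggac
Cenpa: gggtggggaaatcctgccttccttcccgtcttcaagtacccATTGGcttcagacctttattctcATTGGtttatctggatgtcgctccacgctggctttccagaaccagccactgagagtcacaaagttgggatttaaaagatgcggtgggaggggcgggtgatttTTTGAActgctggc
Mcm3: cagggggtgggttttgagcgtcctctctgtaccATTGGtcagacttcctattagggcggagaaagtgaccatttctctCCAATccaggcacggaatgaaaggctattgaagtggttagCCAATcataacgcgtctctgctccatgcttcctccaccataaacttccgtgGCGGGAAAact
Mcm6: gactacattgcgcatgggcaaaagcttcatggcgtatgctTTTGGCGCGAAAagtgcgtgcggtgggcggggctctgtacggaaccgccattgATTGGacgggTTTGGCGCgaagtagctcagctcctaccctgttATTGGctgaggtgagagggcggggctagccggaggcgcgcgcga
All 4 mitotic sequences hold a CHR core, and Cdk1 holds a pair of them besides its E2F core. Neither helicase sequence holds a CHR core, and both hold CCAAT boxes and E2F cores. In Mcm6 a pair of the E2F matches overlaps.

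The libraries held between 36133716 and 46033790 UMIs (unique molecular identifiers, each standing for 1 captured transcript). After filtering, the libraries kept 4973 (WT_A1), 5766 (NHD13Tg), 5158 (Control) and 5586 (Abcg2-MDS/AML) cells, with median depths of 4186 to 5452 UMIs. Between 6 and 14 cell barcodes recurred between any pair of libraries, and none of these belonged to dividing cells in both. The Control library stood apart from the others through its red cell precursors. Cells were typed by marker genes and then checked on further markers that the typing did not use, given as sums of UMIs per 1000000 (CPM). The further MSC markers of MSC-type cells summed to 8836 CPM in Abcg2-MDS/AML and to 32440 to 40268 CPM in the other libraries. The further markers of chondrocyte-type cells summed to 36380 CPM in Control, 17775 in Abcg2-MDS/AML and 8623 in WT_A1, where the type held 4 cells. Cells set apart by markers of other blood cells carried more markers of other types than of their own, as given below.

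A cell was called cycling when it held at least 3 UMIs over Mki67, Top2a and Birc5. Mki67 encodes the Ki-67 protein that coats mitotic chromosomes, and Birc5 encodes survivin, a member of the chromosomal passenger complex. By this rule WT_A1 held 61 cycling cells and NHD13Tg 36, while Control held 513 and its partner Abcg2-MDS/AML held 3. Some stromal cells lay near the edge of the rule. In the order WT_A1, NHD13Tg, Control, Abcg2-MDS/AML, 10, 10, 12 and 7 stromal cells had exactly 2 such UMIs, and 4, 3, 8 and 0 had exactly 3. When 2 UMIs were enough, the cycling share of stromal cells rose from 0.0180% to 0.144% in Abcg2-MDS/AML and from 1.06% to 1.32% in Control.

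Most of the cycling cells in the Control library were blood cells. Of its 513 cycling cells, 408 were erythroid, defined by at least 5 UMIs of Car1 per 10000, and 6 were granulocytic, together 80.7% (77.02 to 84.0%). Car1 encodes a carbonic anhydrase of early red cell precursors, and granulocytic cells were defined by S100a8, S100a9, Ngp and Camp, genes of neutrophil granules. In WT_A1 these types gave 7 of 61 cycling cells, or 11.5% (4.74 to 22.2%), in NHD13Tg 4 of 36, or 11.1% (3.11 to 26.1%), and in Abcg2-MDS/AML 1 of 3. With the cells set apart by markers of other blood cells the blood part was 456 of 513 in Control, or 88.9% (85.8 to 91.5%), 13 of 61 in WT_A1, 6 of 36 in NHD13Tg and 2 of 3 in Abcg2-MDS/AML. On either count blood gave the larger share of cycling cells in Control, and stroma in WT_A1 and NHD13Tg.

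Control held 411 erythroid cells, and 408 of them were cycling, or 99.3% (97.9 to 99.8%). Thinned to 2000 UMIs per cell, 284 of the 411 cells still met the rule, or 69.1%. The other libraries held 4, 1 and 1 erythroid cells in WT_A1, NHD13Tg and Abcg2-MDS/AML, and each of these was cycling. The erythroid cells of Control had a median of 25450 UMIs, far above the 4744 of the stromal cells around them. They expressed all 11 of the further erythroid markers, among them Klf1, the master regulator of red cell genes, at 238 CPM. Ptprc, which encodes the CD45 antigen used in the sort, was at 2.84 CPM. The single erythroid cell of Abcg2-MDS/AML expressed 8 of the 11.

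Of the 18 granulocytic cells of Control 6 were cycling, or 33.3% (13.3 to 59.0%), against 3 of 8 in WT_A1, 3 of 15 in NHD13Tg and 0 of 1 in Abcg2-MDS/AML. The cells set apart by markers of other blood cells were not of 1 kind. In Control 42 of 48 were cycling, but their erythroid markers besides Car1 summed to 23844 CPM, above the 13327 CPM of the erythroid type, against 1911 CPM for the list that chose them. In 34 of these 42 cells more than 0.5% of the UMIs came from globin genes. In WT_A1 6 of 18 and in NHD13Tg 2 of 29 were cycling, and there osteoblast markers summed to 29585 and 30388 CPM, against 3762 and 2587 CPM for their own list. In Abcg2-MDS/AML 1 of 24 was cycling, with 11680 CPM of MSC markers. These cells were kept out of the stroma and out of the comparisons below. A further 13 Control cells met both the erythroid and the chondrocyte rule, 4 of them cycling, and 4 met the erythroid and the osteoblast rule, all 4 cycling. These were kept out of both types.

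**Figure D2:**
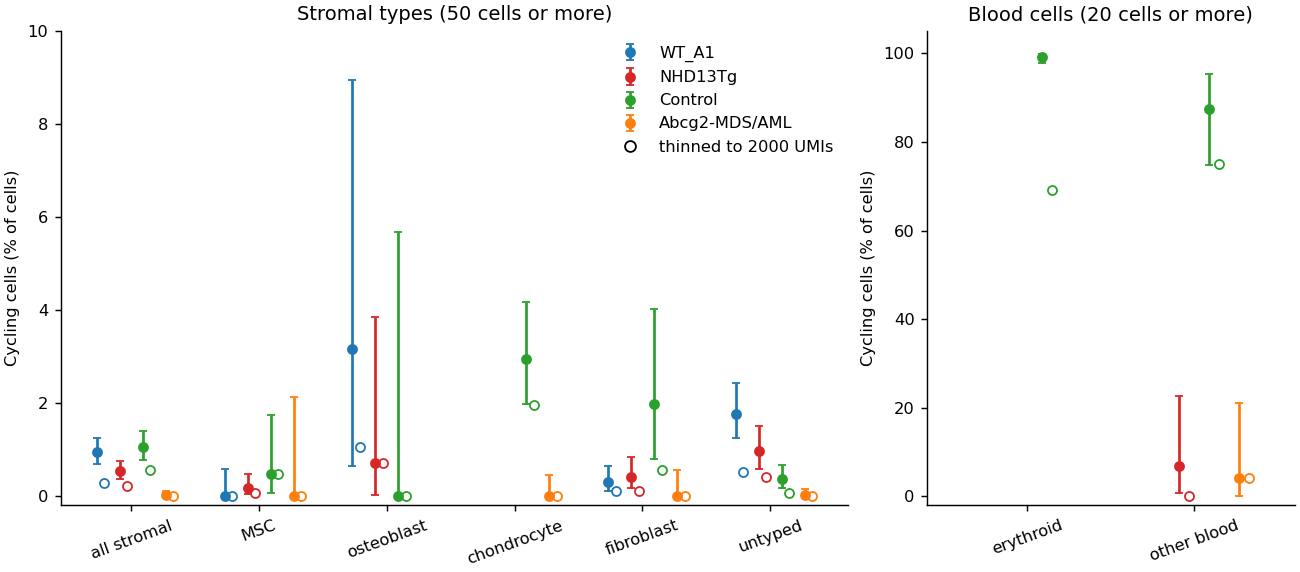
Share of cycling cells in percent of cells by type and library, with exact binomial intervals, for stromal types of 50 cells or more on the left and blood types of 20 cells or more on the right. Control chondrocytes (2.94%) are the highest of the stromal types of that library, and Control erythroid cells (99.3%) lie near the top of the scale.

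All 40 members were higher in the erythroid than in the stromal cells of Control. Their summed level was 16085 CPM against 1079 CPM. The median log2 ratio was 5.19, against -0.12 over all measured genes. A gene was called different when it reached 5 CPM on at least 1 side, its levels were at least 1.5-fold apart and the counting interval of their ratio left out 1. By that rule 40 of 40 members were called higher, where 36.3% of 10377 genes were. The mitotic members summed to 5877 against 155 CPM, the replication members to 3395 against 159 CPM, and the chromatin pair to 6813 against 766 CPM.

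Single members showed the size of the gap. Mki67 was at 866 CPM in the 411 erythroid cells and at 12.3 CPM in the 4638 stromal cells of Control. Top2a was at 658 against 18.0 CPM, and Mcm3 at 355 against 8.17 CPM. Hmgb2, which encodes a DNA-bending protein of proliferating cells, was at 3077 against 169 CPM. Nearly every erythroid cell carried these transcripts: Top2a was found in 99.0% of them and in 2.69% of the stromal cells, and Mcm3 in 98.3% and 3.71%. Hmgb2 was found in every erythroid cell and in 45.7% of the stromal cells, so its presence alone did not mark division. Other genes of the cell cycle moved with the members. All 14 further replication genes and 21 of 22 further mitotic genes were higher in the erythroid cells. Of the CDK inhibitors and p53 arrest genes, 7 of 9 measured were lower and 1 was higher, where 43.0% of all genes were lower.

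**Figure D3:**
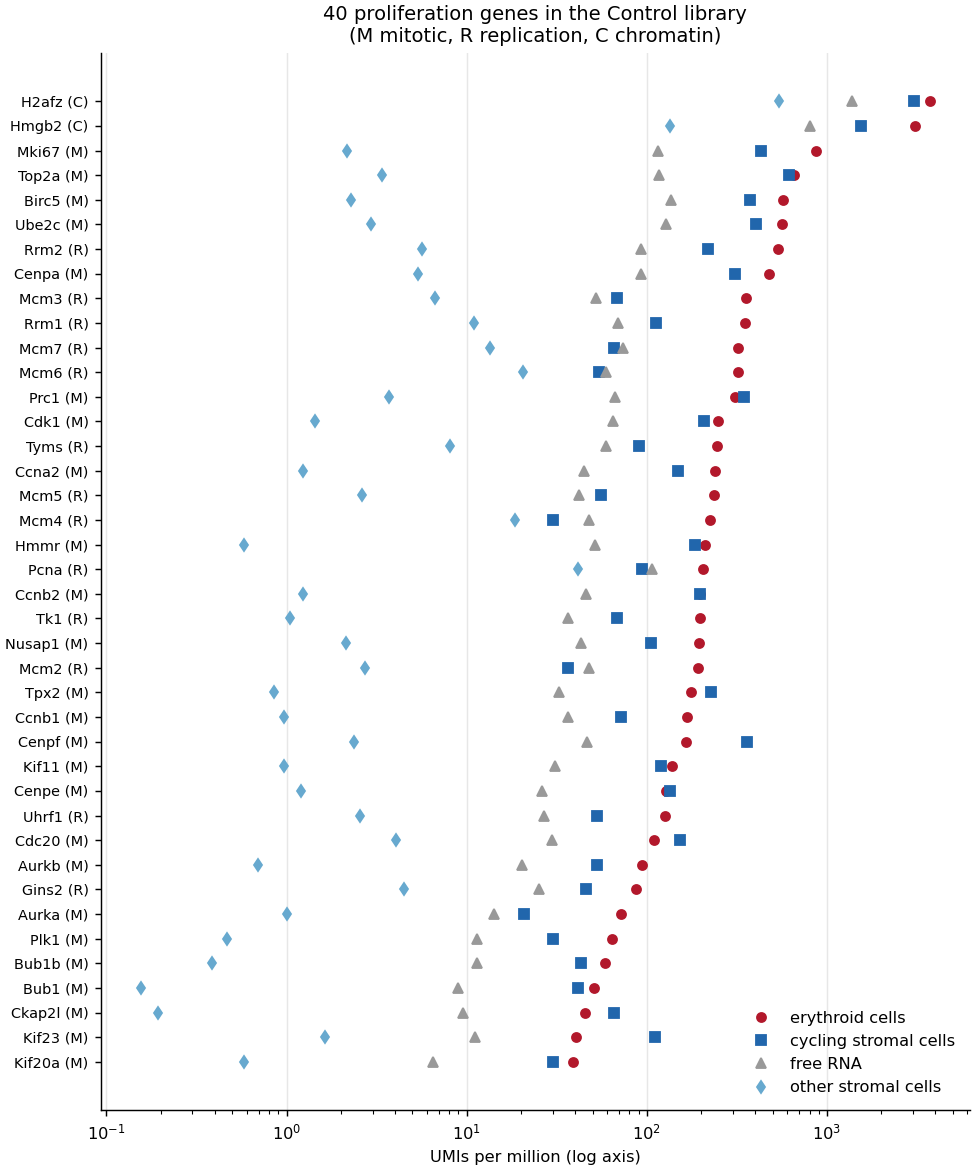
Level of each of the 40 members in CPM, on a log axis, in erythroid, cycling stromal and other stromal cells of the Control library. Grey triangles show the free RNA of that library, taken as transcripts with no cell. Each member lies further right in erythroid cells than in the other stromal cells, and most replication members lie further right in erythroid than in cycling stromal cells.

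Within the 411 erythroid cells, the replication members summed to between 8.81 and 104 UMIs per 10000 with a median of 36.7, and the mitotic members to between 13.1 and 215 with a median of 59.6. Both sums tended to be high in the same cells (Spearman rho 0.602, over 411 cells of 1 library). In each cell both sums are divided by the same depth, which ran from 2026 to 65317 UMIs in the cycling erythroid cells. The part of depth in this rho was not tested. With 10 mitotic members that peak late in the cycle, among them Ccnb1, Plk1 and Cdc20, rho was 0.343. Single members differed in how they followed the sum of the other replication members. Rrm2, a subunit of the ribonucleotide reductase that supplies DNA precursors, had a rho of 0.808, Hmgb2 0.786 and Mcm7 0.657. Cenpa had 0.128, Kif20a, a motor protein of the late spindle, 0.023, and Cdc20, an activator of the complex that ends mitosis, -0.142. With the sum of the other mitotic members, Nusap1, a spindle protein, had 0.798 and Top2a 0.759. These values describe 1 population, and genes with few UMIs give low values in sparse counts. Kif20a had 423 UMIs in all and Cdc20 had 1205.

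About 1% or less of the stromal cells were cycling in 3 libraries, and a single cell in the last. Stromal cells are all cells of MSC, osteoblast, chondrocyte or fibroblast type together with cells that met no rule. Of these, 46 of 4878 were cycling in WT_A1, or 0.943% (0.691 to 1.26%), and 30 of 5629 in NHD13Tg, or 0.533% (0.360 to 0.760%). In Control 49 of 4638 were cycling, or 1.06% (0.783 to 1.39%), and in Abcg2-MDS/AML 1 of 5543, or 0.0180% (upper end 0.1005%). The intervals of WT_A1 and Control overlap, that of NHD13Tg overlaps WT_A1 and lies below Control, and that of Abcg2-MDS/AML lies below all the others.

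The cycling stromal cells were deep cells, with median depths of 19336 UMIs in WT_A1, 16003 in NHD13Tg and 13947 in Control, against medians of 5469, 4990 and 4744 over all stromal cells. They carried many members besides the 3 that chose them. A median of 24.5 of the 37 other members was detected per cycling cell in WT_A1, 22 in NHD13Tg and 18 in Control, whereas the median in the other stromal cells of each library was 2. Blood markers were near 0 in most of them. Ptprc was at 0 in the cycling stromal cells of all 4 libraries. Car1 was at 0 in the 46 cells of WT_A1 and at 3.19 CPM in the 49 cells of Control, where the other stromal cells had 5.81 CPM. Cells rich in Car1 had been kept out of the stroma. So had untyped cells rich in the list of other blood markers, which includes Ptprc. The low levels of both genes follow in part from this typing. In the order WT_A1, NHD13Tg, Control, globin genes were at 19.9, 5065 and 126 CPM in the cycling stroma. The other stroma had 133, 47.0 and 70.1 CPM. In NHD13Tg Car1 was found in 1 of 30 cells, and in 2 of the 30 more than 0.5% of the UMIs came from globin genes, up to 9.99% in 1 cell.

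Against the other stromal cells of their library, the 46 cycling cells of WT_A1 had 40 of 40 members called higher (18.4% of all genes were) and the 30 of NHD13Tg also 40 of 40 (17.0% of all genes). The 49 of Control had 39 of 40 (19.5% of all genes). The member not called was Mcm4, a helicase subunit, at 30.3 against 18.4 CPM. Mki67, Top2a and Birc5 chose the cells, so their rise is not a result. The remaining members were measured in the same cells, which were chosen for these transcripts and are deeper than the rest. The values are given as a description.

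Among the mitotic members, Cdk1 was at 172, 197 and 209 CPM in the cycling stroma of WT_A1, NHD13Tg and Control, and at 0.526, 0.270 and 1.43 CPM in the other stroma. Ccnb1, the cyclin that activates Cdk1, was at 48.6, 79.3 and 71.7 CPM against 0.433, 0.240 and 0.968 CPM. In the other stroma the mitotic members summed to 18.7, 18.4 and 42.1 CPM, and the replication members to 146, 125 and 139 CPM. These cells were set by few UMIs of Mki67, Top2a and Birc5, so their low mitotic sums follow in part from the rule. Single genes overlapped. In Control stroma with no UMI of those genes, the mitotic Cenpa was at 5.29 CPM and the replication gene Mcm2 at 2.64 CPM. Pcna, the sliding clamp of DNA polymerase, was at 183, 161 and 94.0 CPM in cycling stroma and at 43.7, 38.6 and 41.4 CPM in the rest. Mcm2 was at 71.8, 38.6 and 36.6 CPM against 4.61, 2.40 and 2.71 CPM. The chromatin pair was common in both. H2afz, a histone variant, was at 2357, 2752 and 3024 CPM against 485, 492 and 538 CPM, and Hmgb2 at 944, 896 and 1541 CPM against 103, 116 and 135 CPM.

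The balance between replication and mitosis differed among the cycling cells. In the cycling stroma the replication members summed to 1874 CPM in WT_A1, 1502 in NHD13Tg and 994 in Control, and the mitotic members to 3155, 4549 and 4784 CPM. The ratio of the former to the latter was 0.594 in WT_A1, 0.330 in NHD13Tg and 0.208 in Control. The cycling erythroid cells of Control had 0.577. Mki67, Top2a and Birc5 chose the cells and are part of the mitotic sum. Over the other 22 mitotic members the ratios were 0.866, 0.465 and 0.296 in the stroma of WT_A1, NHD13Tg and Control, and 0.898 in the erythroid cells. Cycling cells with at least 3 UMIs of replication members numbered 41 of 46 in WT_A1, 26 of 30 in NHD13Tg, 38 of 49 in the Control stroma and 407 of 408 in the Control erythroid cells. The median depths fall in the same order among the stroma, so the part of depth in these counts was not tested.

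**Figure D4:**
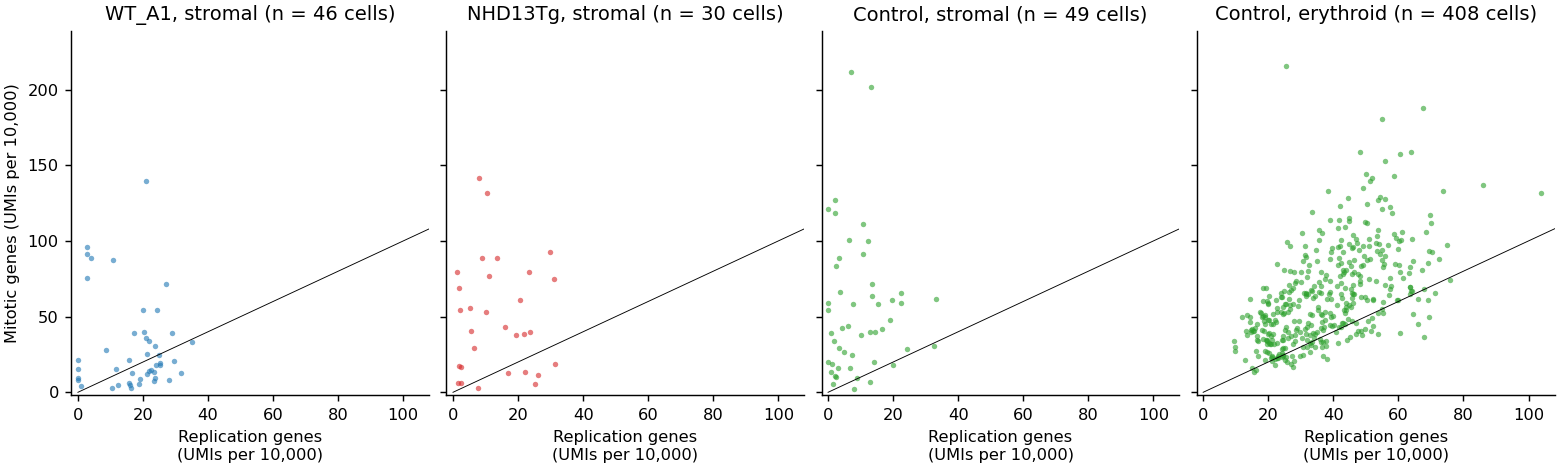
Replication against mitotic members in UMIs per 10000, with 1 point for each cycling cell, for the stroma of WT_A1, NHD13Tg and Control and the erythroid cells of Control; the line marks equal sums. Many Control stromal points lie near the vertical axis, and the erythroid points spread to a replication sum of 104.

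The 411 erythroid cells and the 49 cycling stromal cells of Control were compared directly. Mki67, Top2a and Birc5 chose the stromal cells, whereas Car1 chose the erythroid cells, of which 3 were not cycling. This choice can raise the mitotic over the replication members on the stromal side only, so the values are given as a description. All 13 replication members were higher in the erythroid cells, with a median log2 ratio of 1.62, whereas 25.4% of all genes were called higher and 37.9% lower. Of the 25 mitotic members, which include the genes that chose the stromal cells, 9 were higher and 2 lower, with a median of 0.27. Of the chromatin pair Hmgb2 was higher. The helicase subunits differed most. Mcm4 was at 223 CPM in erythroid and 30.3 CPM in cycling stromal cells, which is a log2 ratio of 2.84 (2.24 to 3.62), and Mcm6 at 319 against 54.2 CPM, a log2 ratio of 2.54 (2.07 to 3.09). Of 14 further replication genes 13 were higher.

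The mitotic members split. Aurka, a kinase of the spindle pole, was at 71.4 against 20.7 CPM, and Ccnb1 at 166 against 71.7 CPM, both higher in erythroid cells. Cenpf, a kinetochore protein, was lower there at 165 against 362 CPM, and so was Kif23, a motor needed for the last cut between daughter cells, at 40.4 against 112 CPM. Ccnb2 (197 against 198 CPM) and Cdk1 (247 against 209 CPM) differed by less than 1.5-fold. So did Top2a (658 against 618 CPM), which is among the genes that chose the stromal cells. Of 22 further mitotic genes 3 were higher and 6 lower.

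The regulators upstream of the members also differed between erythroid and stromal cycling cells. Ccnd1, which encodes a D-type cyclin, was at 3.57 CPM in the erythroid and 81.3 CPM in the cycling stromal cells of Control, and Ccnd3, which encodes another, at 290 against 51.0 CPM. Ccne1, a cyclin of S phase entry, was at 140 against 14.3 CPM. Of 10 measured CDK inhibitors and p53 arrest genes, 7 were lower and 1 higher in the erythroid cells. Cdkn1a, the inhibitor p21, was at 15.5 against 384 CPM, Cdkn1c, the inhibitor p57, at 2.38 against 207 CPM, and Btg2, a target of p53, at 126 against 1803 CPM.

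Within the stroma the CDK inhibitors and p53 arrest genes went both ways in cycling cells. Of 10 measured, 2 were higher and 5 lower in WT_A1, 4 higher and 3 lower in NHD13Tg, and 4 higher and 2 lower in Control. In the same order, 18.4%, 17.0% and 19.5% of all genes were higher, and 15.1%, 10.6% and 10.2% were lower. Cdkn1a was lower in the cycling cells of all 3 libraries, at 375 against 604 CPM in WT_A1, 449 against 728 in NHD13Tg and 384 against 615 in Control. Cdkn2c, an inhibitor of CDK4 and CDK6, was higher in all 3, at 113 against 24.1, 152 against 23.6 and 147 against 25.4 CPM. Ccnd1 was higher in all 3, at 408 against 95.4, 372 against 69.0 and 81.3 against 50.3 CPM. E2f1, a factor that drives S phase genes, was higher at 75.1 against 5.33, 44.7 against 4.51 and 19.1 against 2.05 CPM. The libraries differed for Cdkn1c, which was lower in the cycling cells of WT_A1 (18.8 against 123 CPM) and NHD13Tg (20.3 against 146 CPM) and higher in those of Control (207 against 134 CPM). Myc was lower in WT_A1 (55.2 against 206 CPM) and NHD13Tg (56.9 against 258 CPM) and was 132 against 142 CPM in Control.

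Among genes outside all of these lists, 10 were ranked by their rise in cycling stroma in the library where it was smallest. First came 2810417H13Rik, which encodes the Pcna-associated factor Pclaf, at 414, 295 and 355 CPM in the cycling cells of WT_A1, NHD13Tg and Control and at 1.64, 1.02 and 1.32 CPM in the others. Hist1h1b, a replication-dependent linker histone gene, was at 184, 193 and 429 CPM against 0.402, 0.420 and 3.87 CPM. Hist1h2ap, a core histone gene, varied more, at 723, 130 and 730 CPM against 2.79, 0.270 and 3.76 CPM. Histone genes of this cluster are close copies of one another, and their counts are uncertain for that reason. The other 7 were Spc24, Cenpm, Lockd, Smc2, Cenpw, Diaph3 and Casc5. Spc24, Cenpm, Cenpw and Casc5 encode proteins of the centromere and kinetochore, and Smc2 a subunit of condensin, which compacts chromosomes.

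By type, 30 of the 49 cycling stromal cells of Control were chondrocytes. Of the 1021 Control chondrocytes 2.94% were cycling (1.99 to 4.17%), and 7 of 355 fibroblasts, or 1.97% (0.796 to 4.02%). Of 2785 Control cells without a type 10 were cycling, or 0.359%, of 414 MSC-type cells 2, and of 63 osteoblasts none, which allows a share of up to 4.76%. In WT_A1 and NHD13Tg most cycling stroma had no type. There 37 of 2097 untyped cells were cycling in WT_A1, or 1.76% (1.25 to 2.42%), and 19 of 1950 in NHD13Tg, or 0.974% (0.588 to 1.52%). These 2 libraries held only 4 and 6 chondrocytes.

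Cells of MSC type were defined by Adipoq, Lepr and Esm1, genes of the stroma that also makes Cxcl12, the chemokine that holds blood stem cells in the marrow. Few of them were cycling. In WT_A1 0 of 641 were, which allows a share of up to 0.468%, and 3 of 1813 in NHD13Tg, or 0.165%. Both NHD13Tg cells with more than 0.5% globin were among these 3. In the cycling stroma of WT_A1 Adipoq had 1 UMI, or 1.10 CPM, where the other stroma had 127 CPM, and Cxcl12 was at 83.9 against 2332 CPM. In NHD13Tg Cxcl12 was at 1173 against 5293 CPM and in Control at 376 against 1143 CPM.

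Some genes of cartilage zones differed between the cycling chondrocytes of Control and the rest of their type. These genes are a selection, named after their values were seen. Acan, Matn1, Ihh, Pth1r, Msmp, Cytl1, Spp1 and Sox9 were also looked at and are not shown. The selection therefore does not assign the cycling cells to a zone. Col2a1, the main collagen of cartilage, was at 34469 CPM in the 30 cycling cells and 23289 CPM in the others, and Matn3, a matrix protein of growth plate cartilage, at 3027 against 1254 CPM. Col10a1, the collagen of enlarged chondrocytes, was at 14.1 against 434 CPM. Prg4, the lubricant of the joint surface, was at 5197 against 15389 CPM. Ibsp, a matrix protein of mineralizing cells, was at 411 against 4582 CPM. The erythroid gene Car1 was at 4.70 and 5.11 CPM, Ptprc at 0 in the cycling cells, and the list of other blood markers at 7.05 and 4.85 CPM. Globin genes were at 146 CPM in the cycling and 60.3 CPM in the other chondrocytes. Cells rich in Car1 had been kept out of this type, so its low level follows in part from the typing.

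The first pair asks how the stroma of NHD13Tg differs from that of WT_A1. The stroma was a different mixture in the libraries of this pair. MSC-type cells were 12.9% of the cells in WT_A1 and 31.4% in NHD13Tg, and MSC markers summed to 4981 and 12238 CPM over the stroma. The part of this mixture in the values below was not tested beyond the values by type. The share of cycling stromal cells was 0.410 percentage points lower in NHD13Tg, with an interval from -0.768 to -0.0710. Thinned to 2000 UMIs per cell, 12 and 14 cells remained, the difference was -0.0738 points (-0.294 to 0.131), and the interval included 0. Among untyped cells, which held most of them, the difference was -0.790 points (-1.55 to -0.0388), and -0.114 points (-0.588 to 0.361) when thinned. The median depth of stromal cells was 5469 UMIs in WT_A1 and 4990 in NHD13Tg, and the part of this gap in the share was not tested.

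In summed counts of all stromal cells, 23 of 40 members reached 5 CPM in 1 of this pair. A member that passes this minimum through 1 library only can hardly be called in the other direction, so the counts are a description. None was called higher and 8 were called lower in NHD13Tg, where 4.87% of 9888 genes were called higher and 3.14% lower. The median member log2 ratio was -0.39, or -0.38 over all 40 members with no minimum, against -0.05 over all genes. In such sums, fewer dividing cells and less RNA per dividing cell cannot be told apart. Replication members gave 6 of the 8. Mcm2 was at 2.93 CPM in NHD13Tg and 6.44 in WT_A1, a log2 ratio of -1.13 (-1.50 to -0.79). Mcm5 was at 2.81 against 6.32 CPM (-1.17, from -1.53 to -0.81), and Uhrf1, which reads hemimethylated DNA behind the fork, at 2.43 against 5.03 CPM. The others were Mcm3, Rrm2 and Tk1, and from mitosis Top2a and Cdk1.

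The median log2 ratio with no minimum was -0.33 over the 25 mitotic and -0.41 over the 13 replication members, and the difference between these was not tested. Mki67 was at 7.43 CPM in NHD13Tg and 8.64 in WT_A1, a log2 ratio of -0.22 (-0.47 to 0.03), and Cenpf at 6.13 against 7.35 CPM (-0.26, from -0.54 to 0.01). Cenpa had 222 UMIs in NHD13Tg and 166 in WT_A1, a log2 ratio of 0.39 (0.10 to 0.69). H2afz (525 against 536 CPM) and Hmgb2 (128 against 126 CPM) were nearly equal. The types differed. Over the replication members the summed level was 163 CPM in NHD13Tg and 243 in WT_A1 among untyped cells, 62.5 and 85.0 among osteoblasts, 145 and 157 among fibroblasts, and 138 and 150 among MSC-type cells. The median log2 ratio with no minimum was -0.62, -0.33, -0.10 and 0.02 in these types, so the lower level lay in untyped cells more than in fibroblasts or MSC-type cells. In the untyped cells 30 members were measured, 9 of 13 replication members and 2 of 15 measured mitotic members were lower, and none was higher, against 3.04% of 9795 genes that were lower. Of 10 measured further replication genes in the whole stroma 1 was lower (Rpa2), and of 10 measured CDK inhibitors and p53 arrest genes none was called.

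The second pair asks the same of Abcg2-MDS/AML and Control, and here the gap was wide. The share of cycling stromal cells was 1.04 points lower in Abcg2-MDS/AML (-1.38 to -0.752). Thinned to 2000 UMIs, 26 cells remained in Control and none in its partner, which moved the difference to -0.561 points (-0.820 to -0.355). The interval left out 0 at both depths. With every type threshold doubled the difference was -1.56 points.

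The gap was widest in chondrocytes. None of 832 chondrocytes of Abcg2-MDS/AML was cycling, which allows a share of up to 0.361%, against 30 of 1021 in Control, a difference of -2.94 points (-4.17 to -1.89). Thinned, Control kept 20 cycling chondrocytes, or 1.96%, and the difference was -1.96 points (-3.01 to -1.08). The Abcg2-MDS/AML chondrocytes were the deeper of the pair, with a median of 10861 UMIs against 7240. Their further chondrocyte markers summed to 17775 CPM against 36380, so cells of this type were not the same mixture in both libraries. Among fibroblasts 0 of 652 were cycling in Abcg2-MDS/AML, which allows up to 0.460%, against 7 of 355 in Control. That difference was -1.97 points (-4.02 to -0.668), and -0.563 points (-2.02 to 0.187) when thinned. Among untyped cells, the largest type in both libraries, the difference was -0.333 points (-0.635 to -0.113), and -0.0718 points (-0.259 to 0.0423) when thinned. Of 172 MSC-type cells none was cycling, against 2 of 414, which was not detectable as a difference (-1.73 to 1.68 points).

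In summed stromal counts 22 members were measured in this pair, 16 of them called lower and 1 higher in Abcg2-MDS/AML, where 21.7% of 9755 genes were called lower and 10.1% higher. The median log2 ratio was -1.31 over these members and -1.82 over all 40 with no minimum, against -0.13 over all genes. The 25 mitotic members summed to 26.5 CPM in Abcg2-MDS/AML and 155 CPM in Control, with a median log2 ratio of -2.72 with no minimum. The 11 of them that were measured reached 5 CPM through Control, so that all 11 were called lower follows in part from the minimum. Ube2c, which tags mitotic proteins for destruction, was at 0.817 CPM against 12.4, a log2 ratio of -3.90 (-4.57 to -3.34). Cenpf was at 0.915 against 10.9 CPM (-3.55, from -4.19 to -3.01). Mki67, at 0.882 against 12.3 CPM, and Top2a, at 2.03 against 18.0 CPM, belong to the genes behind the cycling share above.

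The median depended on which members entered it. Over the 6 members that reached 20 CPM it was 0.059, and with every type threshold doubled it was -2.87 over 32 members.

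The 13 replication members of the same pair summed to 133 and 159 CPM, with a median log2 ratio of -0.79 with no minimum. Of 9 measured, 4 were lower and 1 higher. Tyms, the enzyme that makes thymidylate, was lower with 127 against 265 UMIs (a log2 ratio of -1.27), and Rrm2 at 4.41 against 10.7 CPM. Mcm7 was higher at 23.5 against 14.7 CPM, a log2 ratio of 0.68 (0.50 to 0.86). Mcm3 (8.07 against 8.17 CPM) and Pcna (42.4 against 42.6 CPM) were nearly equal. Of the chromatin pair H2afz was lower at 378 against 597 CPM, and Hmgb2 was at 193 against 169 CPM, which is under 1.5-fold.

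**Figure D5:**
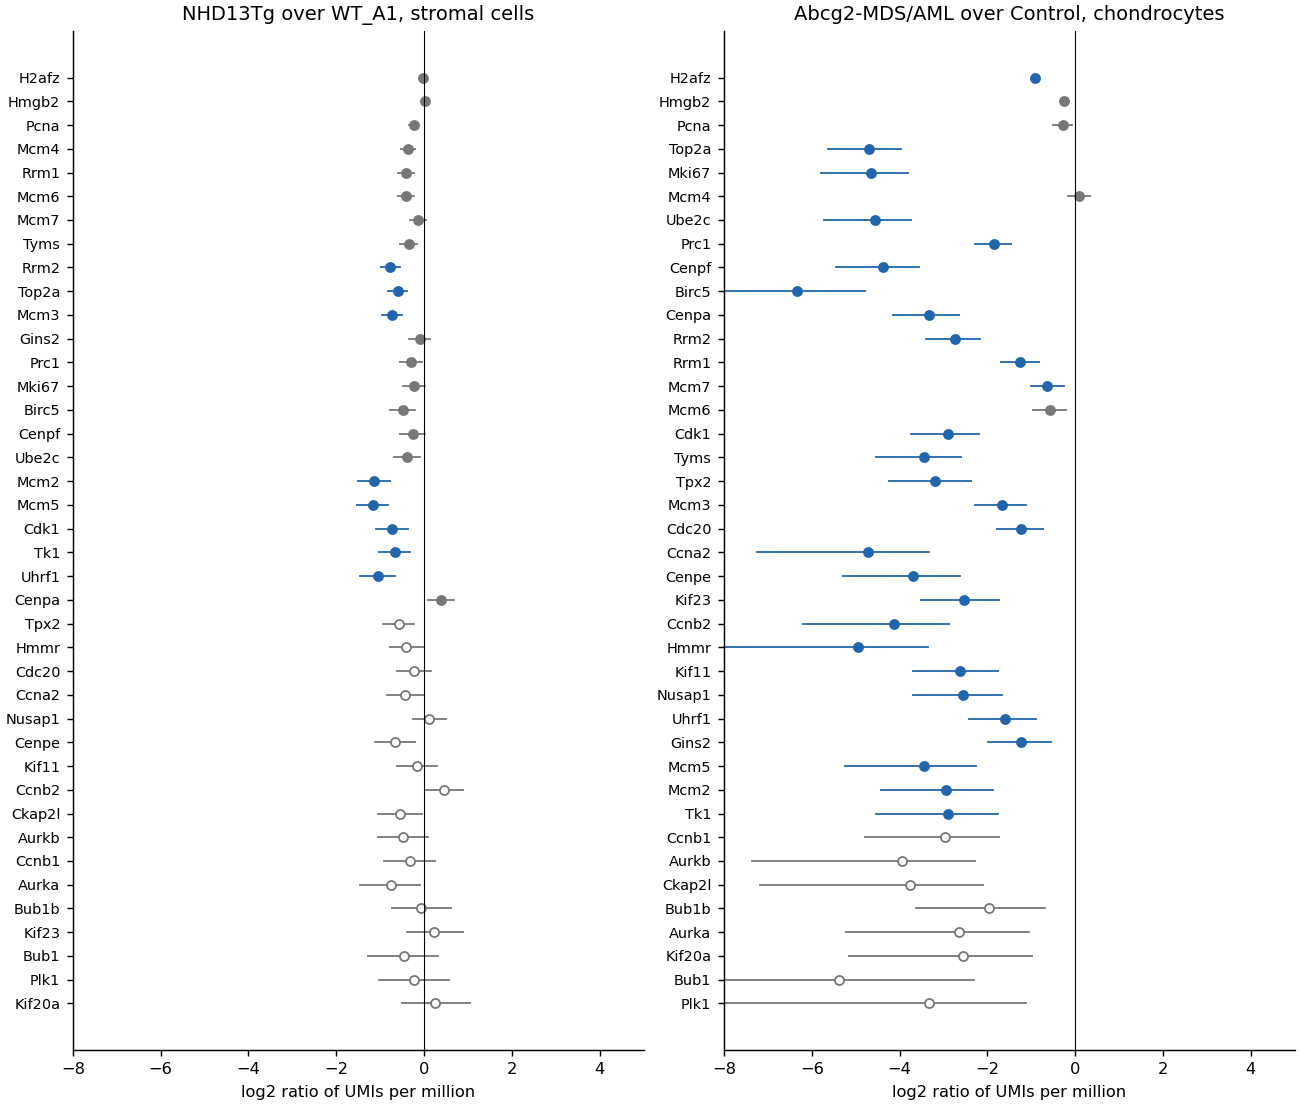
log2 ratio of CPM for each of the 40 members in the stromal cells of the first pair and in the chondrocytes of the second pair, with counting intervals. Open points mark members under 5 CPM in both libraries, and values left of the line are lower in the disease model. The measured mitotic members lie left of the line in the chondrocytes, where most reached 5 CPM through Control only.

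Free RNA was also unequal in this pair. In barcodes of 1 to 100 UMIs, taken as free transcripts with no cell, the mitotic members summed to 1203 CPM in Control and 67.9 CPM in Abcg2-MDS/AML, and Car1 to 426 and 6.72 CPM. In the stromal cells that were not cycling, the mitotic members summed to 42.1 CPM in Control and 24.7 CPM in Abcg2-MDS/AML, and Car1 to 5.81 CPM and 0. In WT_A1 and NHD13Tg these sums were 18.7 and 18.4 CPM for the mitotic members and 0.124 and 0.390 CPM for Car1. The part of free erythroid RNA in the stromal sums of Control was not tested. With the cycling cells left out of both libraries, an alternative chosen after seeing the data, the median member log2 ratio of the second pair was -0.38 and that of the first pair -0.18.

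In the chondrocytes of the second pair 32 members were measured, 28 of them lower in Abcg2-MDS/AML and none higher, where 35.7% of 9200 genes were lower. The median log2 ratio was -2.81, or -2.90 over all 40 with no minimum, against -0.36 over all genes. The 25 mitotic members summed to 30.5 against 311 CPM, with a median log2 ratio of -3.33 with no minimum. Those measured reached 5 CPM mostly through Control, so their calls follow in part from the minimum. Ube2c was at 1.08 against 26.9 CPM and Cenpf at 1.19 against 25.7 CPM. Of 13 replication members 10 were lower, such as Mcm3 at 3.78 against 12.1 CPM and Tyms at 1.19 against 13.4 CPM. The exceptions were Pcna (36.8 against 44.7 CPM), Mcm4 (29.3 against 27.6 CPM) and Mcm6 (11.5 against 17.1 CPM), which were less than 1.5-fold apart. In the fibroblasts 25 members were measured, and 16 were lower (23.4% of 10013 genes were) and 1, Mcm7, higher. In the untyped cells the mitotic members summed to 23.6 against 67.01 CPM and the replication members to 140 against 139 CPM, with medians of -1.49 and -0.43 with no minimum. In the MSC-type cells, 172 against 414, the mitotic members summed to 34.8 against 203 CPM. The replication members were higher there, at 197 against 160 CPM. These medians were -2.03 and 0.26 with no minimum. Of 8 replication members measured 3 were higher and none lower, where 10% of 10191 genes were higher and 14.9% lower.

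Genes around the members moved in both directions in the second pair. Ccnd2, a D-type cyclin, was lower in Abcg2-MDS/AML, at 54.7 against 140 CPM in all stroma and 11.6 against 78.8 CPM in chondrocytes. Cdkn1c was lower in chondrocytes at 38.6 against 185 CPM, as was Stmn1, which destabilizes microtubules and is abundant in dividing cells, at 17.5 against 122 CPM. Cdkn1a was higher there at 596 against 387 CPM, and Cdkn2d, the inhibitor p19, at 164 against 91.4 CPM. Myc was higher at 237 against 152 CPM, and Rbl2, the pocket protein of the DREAM complex in resting cells, at 38.9 against 21.8 CPM. Of the further mitotic genes 11 of 12 measured in chondrocytes were lower and 1, Pttg1, higher. Of the further replication genes 7 of 9 were lower, and Dut, which clears dUTP, was higher at 145 against 78.2 CPM. Over all 9200 genes measured in chondrocytes 35.7% were lower and 7.37% higher.

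In stromal cells with no UMI of Mki67, Top2a or Birc5, some members stayed abundant. In the order WT_A1, NHD13Tg, Control, Abcg2-MDS/AML, H2afz was at 478, 486, 537 and 375 CPM, and Hmgb2 at 102, 116, 134 and 192 CPM. Pcna lay within a narrow range, at 43.7, 38.3, 41.3 and 42.4 CPM. Mcm4 was at 17.0, 14.4, 18.0 and 20.5 CPM, and Mcm6 at 13.7, 11.8, 20.6 and 14.5 CPM. Among these resting cells the order of the libraries was different for each gene, and Abcg2-MDS/AML was the lowest for H2afz and the highest for Hmgb2 and Mcm4. A UMI of these genes did not by itself mark a dividing cell.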

How the data were processed

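Bone marrow stromal cells were profiled with a droplet 3′ kit in 4 libraries. The deposited matrices hold raw UMI counts of 27998 genes for every barcode, made with Cell Ranger 3.1.0 per the file headers. The submitters' processing notes also name Seurat 3.2.3. Not given in the sources used here are the genome build and annotation of the counts.

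Cells had at least 2000 UMIs, at least 500 genes and at most 10% mitochondrial UMIs. Types were set by UMIs per 10000: erythroid, Car1 at 5; granulocytic, S100a8, S100a9, Ngp and Camp at 30; MSC, Adipoq, Lepr and Esm1 at 10; osteoblast, Bglap and Bglap2 at 100; chondrocyte, Col9a1, Col9a2 and Col9a3 at 15; fibroblast, Dpt, Clec3b and Col14a1 at 8. Cells meeting several rules were set apart, and untyped cells with at least 5 over 11 markers of other blood cells were called other blood. No doublets were removed from the main values. UMIs were summed by type and library and given per 1000000 (CPM), and ratios used 0.5 added counts. Shares have exact Clopper-Pearson intervals, counts exact Poisson intervals and ratios conditional binomial intervals. Differences of shares combine both exact intervals. A share of 0 is given with the limit of 3 counts. Thinning drew 2000 UMIs per cell. The ratio rule was tested on simulated data.

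Named genes are the 40 members, genes of the listed pathways at 5 CPM or more, and the 10 genes outside all lists with the largest rise in cycling stroma, taken in the library where it was smallest, with 10 CPM added. The same ranking for erythroid cells is not reported, because 3 Control erythroid cells were not cycling. Genes of cartilage zones, Klf1, Ptprc and Cxcl12 are markers, and these single genes were named after their values were seen. The late mitotic set of 10 genes was chosen by known role. The members and lists were chosen with earlier results of these data known. Promoters are from RefSeq (GRCm38.p6), 250 bases before to 50 after each start. Members without an entry were Gins2, Tpx2, Mcm4, Ccna2, Aurkb and Kif20a. H2afz was matched by synonym. Analyses used Python 3.11.15, numpy 2.4.6, scipy 1.17.1, pandas 2.3.3, scanpy 1.11.5 and matplotlib 3.10.9. Alternatives were the UMI and mitochondrial limits, the cycling rule, thinning, the CPM minimum, the added count, scaling and removal of likely doublets.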

Additional observations from a re-analysis of the deposited data

Results flagged for a closer look

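The share of cycling cells differed in opposite directions in the pairs for a few types. Among MSC-type cells it was 0.165 percentage points higher in NHD13Tg than in WT_A1 (-0.423 to 0.483) and -0.483 points in Abcg2-MDS/AML relative to Control (-1.73 to 1.68). Among fibroblasts it was 0.113 points higher in NHD13Tg than in WT_A1 (-0.309 to 0.582) and -1.97 points in Abcg2-MDS/AML relative to Control (-4.02 to -0.668). With 1 library per group, whether these differences differ between the pairs was not tested. Of the 4 intervals, the fibroblast interval of the second pair is the only one without 0, and it includes 0 when the cells are thinned (-2.02 to 0.187).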

How the results depend on the processing

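For the 6 main results (the blood part of cycling cells and the cycling share of erythroid cells in Control, and for each pair the difference in cycling stroma and the median member ratio), 41 alternative values stayed within the counting interval of the reported value, 14 moved outside it, and 1 reversed. The median log2 ratio of Abcg2-MDS/AML over Control reversed to 0.059 over the 6 members that reached 20 CPM. It was -1.82 with no minimum, -2.87 with type thresholds doubled, and -0.38 without cycling cells, an alternative chosen after seeing the data. The median of NHD13Tg over WT_A1 was -0.13 over the 4 members that reached 20 CPM and -0.18 without cycling cells, also chosen after seeing the data. The stromal difference of Abcg2-MDS/AML and Control was -0.715 points when 5 UMIs called a cell cycling, -0.561 when thinned and -1.56 with thresholds doubled. The blood part of cycling cells in Control was 91.9%, 91.5% and 85.0% under the same settings. The cycling share of Control erythroid cells was 90.1% from 1000 UMIs per barcode, 100% from 4000 UMIs and 69.1% when thinned. The stromal difference of NHD13Tg and WT_A1 kept its sign under all its alternatives, and its interval included 0 only when thinned, at -0.0738 points. Apart from what each setting removes, the cause of these shifts was not tested. No paired analysis was possible because each group holds 1 library. Scrublet at its own threshold called 1, 1, 3 and 2 cells and had not worked, so the 198 to 266 cells with the highest scores were removed instead. Of the cycling stromal cells this removed 5, 2, 4 and 0.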
